A study of Homo sapiens with 12 samples.

Results

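The 10 genes described here are the Notch receptors NOTCH1, NOTCH2 and NOTCH3, the ligands JAG1, JAG2 and DLL1, the target genes HES1, HES4 and HEY1, and NUMBL, a relative of the Notch inhibitor NUMB. They are listed by name, with no limit on their values, from the 56632 genes of each deposited table, and all 10 passed the filter on low counts. The RNA came from MCF10A, a non-tumorigenic line of human mammary epithelial cells. WT cells were compared with CBFB_KO cells, in which CBFB, the partner subunit of the RUNX transcription factors, had been disrupted with CRISPR-Cas9 and single-cell colonies had been picked, so the knockout may be that of 1 clone. Cells of both genotypes had been treated with cycloheximide, which holds ribosomes on mRNA, and their lysates were spun through sucrose gradients. RNA was sequenced from 3 parts of the gradients, namely RNA free of ribosomes (free), RNA with a single ribosome (mono) and pooled RNA with several (poly), with 2 replicates of each fraction in each genotype, 12 libraries in all. The labels do not say whether replicates came from separate cultures or separate knockout lines, so p-values measure the spread between these libraries, which may be technical.

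Notch signaling passes between touching cells. A JAG or DLL ligand on one cell binds a Notch receptor on its neighbour, ADAM proteases and γ-secretase cut the receptor, and the freed intracellular part enters the nucleus and joins the DNA-binding protein RBPJ and MAML coactivators. This complex switches on the HES and HEY genes, which encode short basic helix-loop-helix repressors. In the mammary gland the pathway is known for its part in the choice between basal and luminal cell fates. With these libraries the study asks which mRNAs need CBFB to load onto ribosomes. The comparisons here therefore ask how mRNAs of this pathway were spread over the fractions with and without CBFB. In other experiments the paper reports more NOTCH3 intracellular domain protein in CBFB_KO cells. It proposes that nuclear CBFB and RUNX1 repress NOTCH3 transcription. The fractions measure neither NOTCH3 protein nor total NOTCH3 RNA.

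The letters GTGGGAA are those of a classical RBPJ site, through which Notch acts on its targets. They were searched on both strands of RefSeq promoter windows of GRCh38.p14, from 250 bases before to 50 bases after each start site. Of the Notch genes, 8 had a window, and the motif was in those of HES1 and HES4, against 6.25% of all 35116 windows. The stretches around it are printed in the direction of transcription with the motif in capitals. That of HES1 is chr3:194136052-194136081 on the plus strand, and that of HES4 is chr1:1000156-1000185 on the minus strand.
HES1: tgaaagttactGTGGGAAagaaagtttggg
HES4: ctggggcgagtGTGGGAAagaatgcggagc
The motif began 85 bases before the start site in HES1 and 77 bases before it in HES4. The core letters of RUNX sites, TGTGGT, were in none of these 8 windows and in 13.1% of all windows, so no overlap of the 2 motifs arose. A match or its absence says only whether these letters lie in the window.

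Each library held between 41050325 and 63886726 expected counts. The CBFB_KO free libraries stood apart: mitochondrially encoded RNAs took 71.6% and 87.2% of their counts, against 11.1% and 20.8% in WT free libraries and 1.26% to 8.08% in the other fractions, which left 13568143 and 5247878 counts for all other genes. Replicates of the CBFB_KO poly fraction were more alike than those of any other condition, with a mean chi-square per gene of 2.22 against 123 to 954 for the others. CBFB itself had 376 and 982 counts in WT free, 468 and 288 in WT mono, 597 and 620 in WT poly, 267 and 139 in CBFB_KO free, 258 and 141 in CBFB_KO mono and 277 and 340 in CBFB_KO poly. Its poly level was lower in both CBFB_KO libraries, but the log2 change of -0.72 did not pass the test (adjusted p = 1, edgeR), and a transcript count does not show whether protein is made. All 8 mammary epithelial markers were detected in every library, with KRT5 at 17079 to 262844 counts. Of 8 markers of fibroblasts, blood and endothelium with a single row, COL1A2, COL3A1, PTPRC and CDH5 were at 0 throughout, and CD14 (15 to 2177 counts) and COL1A1 (10 to 320) passed the filter. The summed RPKM of these markers ranged from 1.43 to 2.95 in CBFB_KO free, 2.85 to 4.74 in WT free, 2.70 to 3.72 in CBFB_KO mono, 3.48 to 4.2 in WT mono, 8.53 to 8.88 in CBFB_KO poly and 14.6 to 18.8 in WT poly libraries. The part of these marker levels and of the mitochondrial share in the results below was not tested. Calls of the 10 Notch genes were the same when mitochondrially encoded genes were left out. That fit still rested on the 13568143 and 5247878 counts left in CBFB_KO free RNA, so it cannot decide what the mitochondrial share did.

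Levels below are reads scaled to transcript length and to TMM-normalised library depth (RPKM), given for replicates 1 and 2 in that order. Each library was scaled to itself, so fewer cells, less RNA per cell and a smaller share of RNA in a fraction cannot be told apart. Tests are edgeR's quasi-likelihood tests on the counts of all 12 libraries, with p-values adjusted by the Benjamini-Hochberg method over the 16275 genes tested and a threshold of 0.05. A log2 change of CBFB_KO against WT is positive where CBFB_KO cells were higher.

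The receptors were higher in the free fraction of CBFB_KO cells than of WT cells. All 3 passed the test there and none did in the mono or poly fraction. This direction depended on the scaling: it turned for all 3 with an offset for gene length and for NOTCH3 with library size alone, with the values given beside the lengths below.

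NOTCH1 (ENSG00000148400, chromosome 9) encodes a receptor found in many epithelia. Its free level was 0.399 and 0.741 RPKM in WT cells and 2.86 and 2.89 in CBFB_KO cells. Mono levels were 1.37 and 0.847 in WT and 1.71 and 1.67 in CBFB_KO cells. Poly levels were 3.58 and 4.50 in WT and 3.74 and 3.58 in CBFB_KO cells. The genotypes were thus well separated in the free fraction, separated by less in the mono fraction, and overlapped in the poly fraction. The log2 change was 2.33 in the free fraction (standard error 0.42, adjusted p = 0.00209, edgeR), 0.60 in the mono fraction (standard error 0.40, adjusted p = 1, edgeR) and -0.14 in the poly fraction (standard error 0.40, adjusted p = 1, edgeR).

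NOTCH2 (ENSG00000134250, chromosome 1) encodes another receptor. It stood at 0.321 and 0.801 RPKM in WT free libraries and at 3.51 and 4.54 in CBFB_KO free libraries. Its mono values, 0.25 and 0.322 in WT and 0.185 and 0.381 in CBFB_KO cells, had the lowest means of the 3 fractions. Its poly values were 0.981 and 2.60 in WT and 1.10 and 1.10 in CBFB_KO cells, and the 2 WT libraries differed from each other by more than the genotypes did. The free change was 2.84 on the log2 scale (standard error 0.60, adjusted p = 0.00480, edgeR), and the poly change of -0.71 did not pass (standard error 0.56, adjusted p = 1, edgeR). NOTCH2 shares long stretches with the partial copy NOTCH2NLA, whose row held 178 to 6092 counts per library against 109 to 2582 for NOTCH2, so reads could have been divided between them and the values of NOTCH2 are uncertain. The row of NOTCH2NLA was not higher in CBFB_KO free libraries, at 21.6 and 13.1 RPKM in WT and 11.3 and 9.84 in CBFB_KO cells (log2 change -0.72, adjusted p = 0.137, edgeR).

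NOTCH3 (ENSG00000074181, chromosome 19) was the most abundant of these 3 receptors in all 6 conditions. Its free level was 3.45 and 3.05 RPKM in WT and 7.54 and 10.1 in CBFB_KO cells, with no overlap. Mono levels were 2.58 and 1.80 in WT and 2.34 and 2.53 in CBFB_KO cells. Poly levels were 8.20 and 9.76 in WT and 6.35 and 6.20 in CBFB_KO cells, so that both CBFB_KO libraries were the lower ones there. The log2 change was 1.44 in the free fraction (standard error 0.37, adjusted p = 0.0113, edgeR). In the poly fraction it was -0.52 and did not pass (standard error 0.36, adjusted p = 1, edgeR). The free call was lost without WT replicate 1 (adjusted p = 0.0617), without WT replicate 2 (adjusted p = 0.0670) and without CBFB_KO replicate 2 (adjusted p = 0.126), whereas those of NOTCH1 and NOTCH2 held without any single replicate in edgeR. A replicate left out here means all 3 of its libraries.

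**Figure D1:**
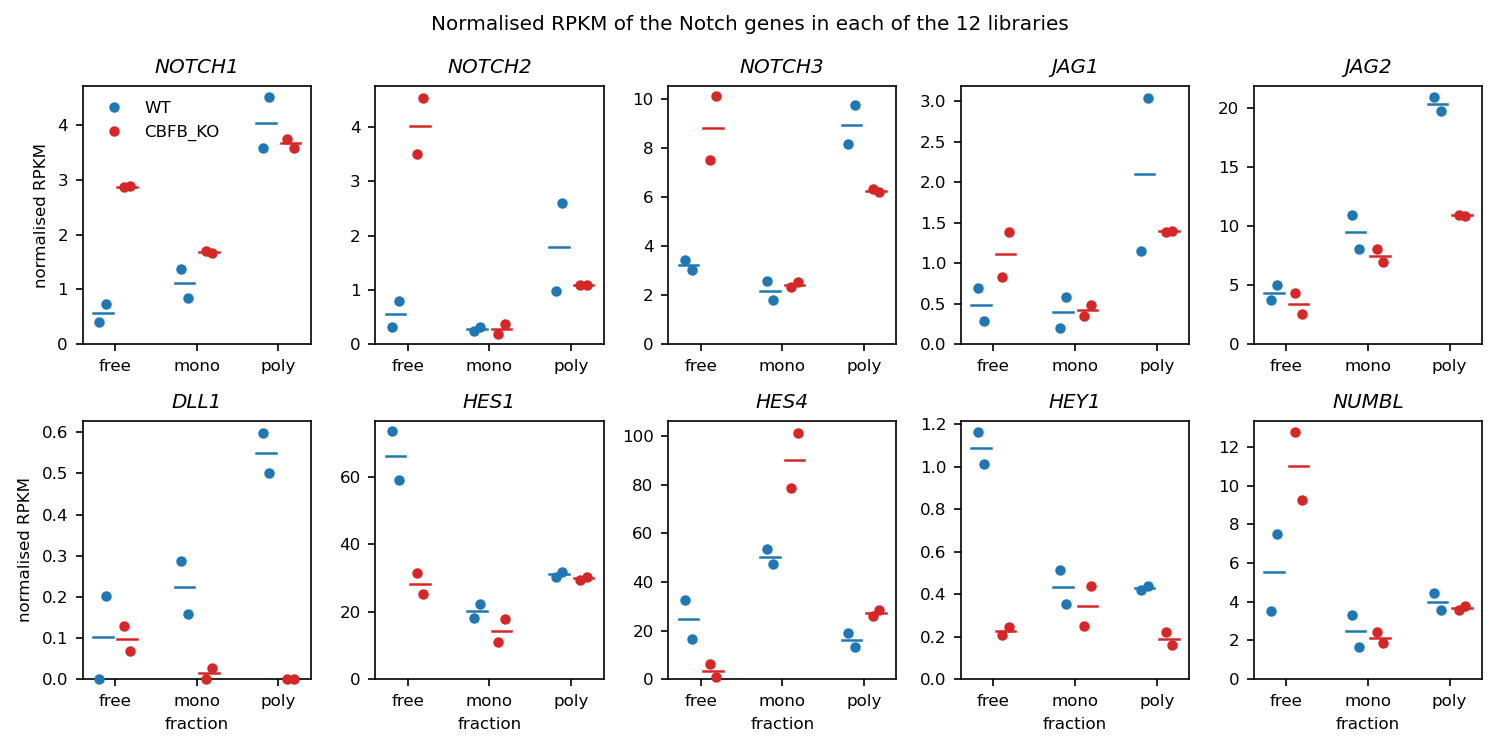
Normalised RPKM (vertical axes, starting at 0) of each Notch gene in the free, mono and poly fractions (horizontal axes), with 1 point for each of the 12 libraries and a bar at the mean of each pair, WT in blue and CBFB_KO in red. In the free fraction the CBFB_KO points lie above the WT points for NOTCH1, NOTCH2, NOTCH3, JAG1 and NUMBL and below them for HES1, HES4 and HEY1, on this TMM scale.

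Among the ligands, no change between genotypes passed edgeR's test in any fraction when all 12 libraries were fitted. JAG1 (ENSG00000101384, chromosome 20) encodes the Jagged ligand best known from development. It stood at 0.696 and 0.285 RPKM in WT free, 0.830 and 1.39 in CBFB_KO free, 0.205 and 0.588 in WT mono and 0.350 and 0.485 in CBFB_KO mono libraries. Its WT poly libraries differed widely, at 1.16 and 3.05, and the CBFB_KO poly libraries at 1.39 and 1.39 lay between them. The free change of JAG1 was 1.17 on the log2 scale (standard error 0.64, adjusted p = 0.159, edgeR) and the poly change was -0.59 (standard error 0.62, adjusted p = 1, edgeR).

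JAG2 (ENSG00000184916, chromosome 14), the other Jagged ligand, was the most abundant of these 3 ligands in every condition. Its free values were 3.71 and 5.02 RPKM in WT and 4.32 and 2.53 in CBFB_KO cells, which overlap. Mono values were 10.9 and 8.08 in WT and 8.08 and 6.93 in CBFB_KO cells, almost touching. In the poly fraction WT cells had 20.9 and 19.8 and CBFB_KO cells 10.9 and 10.9, so both CBFB_KO libraries were far below both WT libraries. The poly change was -0.90 on the log2 scale (standard error 0.38) and did not pass over all 12 libraries (adjusted p = 1, edgeR). With the 4 poly libraries fitted alone it was -0.92 and passed (adjusted p = 0.0408, edgeR), in a fit that called 0.758% of 14638 genes lower. The spread in that fit rests in part on the CBFB_KO poly libraries, which were far more alike than other replicates and may be technical repeats.

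DLL1 (ENSG00000198719, chromosome 6) encodes a Delta-like ligand and had the fewest reads. Its free counts were 0 and 47 in WT and 9 and 2 in CBFB_KO cells, and its mono counts were 50 and 22 in WT and 0 and 3 in CBFB_KO cells. In the poly fraction it had 186 and 135 counts in WT cells and 0 in both CBFB_KO libraries. Set against a floor of 3 counts per library, poly DLL1 was at least 44.0-fold higher in WT than in CBFB_KO cells. With all 12 libraries in edgeR, this change had an adjusted p of 0.462. It passed in DESeq2 (adjusted p = 0.00339), in edgeR without a filter on low counts (adjusted p = 0.000133), in edgeR on the 4 poly libraries (adjusted p = 0.0318) and in edgeR on the 8 mono and poly libraries (adjusted p = 0.0429), a fit chosen after seeing the data that called 0.308% of 15584 genes lower. DESeq2 called 0.457% of its genes lower in this comparison. The fits on 4 and 8 libraries lean more than the fit on 12 on the 2 CBFB_KO poly libraries, which were far more alike than other replicates. DLL1 overlaps FAM120B on the opposite strand, and strand was not stated for the counting, so reads of either gene could have been assigned to the other. NOTCH1 and JAG1 each overlap an antisense gene on the opposite strand. JAG2 and DLL1 each overlap a noncoding transcript on the same strand. Reads of these genes could have been divided in the same way.

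On the TMM scale the target genes moved the other way from the receptors in the free fraction, whereas with an offset for gene length both were lower, the receptors at -1.03 (NOTCH1), -0.75 (NOTCH2) and -1.65 (NOTCH3). HES1, HES4 and HEY1 were all lower in CBFB_KO free RNA and passed the test, and none passed in the mono or poly fraction. HES1 (ENSG00000114315, chromosome 3), the widely expressed Notch target, had 73.5 and 59.1 RPKM in WT free and 31.4 and 25.1 in CBFB_KO free libraries. Its mono values were 18.2 and 22.2 in WT and 11 and 17.8 in CBFB_KO cells, and its poly values were 30.4 and 31.8 in WT and 29.4 and 30.3 in CBFB_KO cells. The poly values were close in all 4 libraries, while the free values of the genotypes lay far apart. The log2 change was -1.23 in the free fraction (standard error 0.38, adjusted p = 0.0248, edgeR), and it was -0.06 in the poly fraction (standard error 0.37, adjusted p = 1, edgeR).

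HES4 (ENSG00000188290, chromosome 1), a HES gene that human cells have and the mouse genome lacks, was highest in the mono fraction of both genotypes. Free values were 32.8 and 16.7 RPKM in WT and 6.05 and 0.735 in CBFB_KO cells, and the last of these rests on 5 counts. Mono values were 53.5 and 47.3 in WT and 78.9 and 101 in CBFB_KO cells, and poly values were 19.1 and 13.2 in WT and 26.2 and 28.4 in CBFB_KO cells. CBFB_KO cells therefore had less HES4 than WT cells in the free libraries and more in the mono and poly libraries, without overlap in any fraction. The free change was -2.79 on the log2 scale (standard error 0.70, adjusted p = 0.0106, edgeR). The changes of 0.84 in the mono fraction (standard error 0.64) and 0.76 in the poly fraction (standard error 0.64) did not pass (adjusted p = 1 for both, edgeR).

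HEY1 (ENSG00000164683, chromosome 8), which encodes a repressor of the related HEY family, was scarce in every fraction. It had 1.17 and 1.01 RPKM in WT free and 0.207 and 0.247 in CBFB_KO free libraries, the latter from 8 and 4 counts. Its mono values were 0.513 and 0.355 in WT and 0.249 and 0.437 in CBFB_KO cells. Its poly values were 0.421 and 0.438 in WT and 0.221 and 0.158 in CBFB_KO cells, again lower in both CBFB_KO libraries. The log2 change was -2.27 in the free fraction (standard error 0.73, adjusted p = 0.0298, edgeR) and -1.17 in the poly fraction (standard error 0.67, adjusted p = 1, edgeR). Calls of the target genes in the free fraction leaned on single replicates in edgeR: none of the 3 remained without WT replicate 1 or without CBFB_KO replicate 2, only that of HES4 remained without CBFB_KO replicate 1, and all 3 remained without WT replicate 2. The change of HES4 was -5.07 without CBFB_KO replicate 1, since the other CBFB_KO library held 5 counts.

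NUMBL (ENSG00000105245, chromosome 19) encodes a homolog of NUMB, the adaptor that helps take Notch receptors out of the membrane. It stood at 3.54 and 7.50 RPKM in WT free and 12.8 and 9.28 in CBFB_KO free libraries. Mono values were 3.34 and 1.67 in WT and 2.43 and 1.86 in CBFB_KO cells, and poly values were 4.44 and 3.58 in WT and 3.56 and 3.79 in CBFB_KO cells. Only the free values were separated by genotype. Their log2 change of 1.0 did not pass (standard error 0.46, adjusted p = 0.0987, edgeR).

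Across the list, 3 of 10 genes were called higher and 3 lower in CBFB_KO free RNA, beside 24.2% and 18.1% of all genes tested. The free fraction differed for much of the transcriptome, so these shares are close to the background and are not particular to the Notch genes. With the 4 free libraries fitted alone, only NOTCH1 (adjusted p = 0.0467) and NOTCH2 (adjusted p = 0.0378) were called by edgeR, 2 of 10 higher beside 12.7% and 0 of 10 lower beside 0.676%. In the mono fraction 0 of 10 were called, beside 0.0307% higher and 0.117% lower (DLL1 had the lowest unadjusted p, 0.0505). In the poly fraction 0 of 10 were called, beside 0.0246% higher and 0.166% lower, with an unadjusted p under 0.05 for DLL1 (0.00270) and JAG2 (0.0382) and, as above, DLL1 called by DESeq2. Leaving DLL1 out, the log2 changes of the other 9 ranged from -2.79 to 2.84 in the free fraction but from -0.49 to 0.84 in the mono fraction and from -1.17 to 0.76 in the poly fraction.

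Counted by libraries alone, both CBFB_KO libraries lay above both WT libraries for 5 of 10 genes in the free fraction, beside 37.4% of all genes, and below them for 3, beside 31.5%. In the mono fraction NOTCH1 and HES4 lay above, 2 of 10 beside 17%, and JAG2, DLL1 and HES1 below, 3 of 10 beside 12.9%. In the poly fraction HES4 lay above, 1 of 10 beside 24.7%, and NOTCH3, JAG2, DLL1, HES1 and HEY1 below, 5 of 10 beside 25%. HES4 was the gene that lay below in the free fraction and above in both ribosomal fractions.

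**Figure D2:**
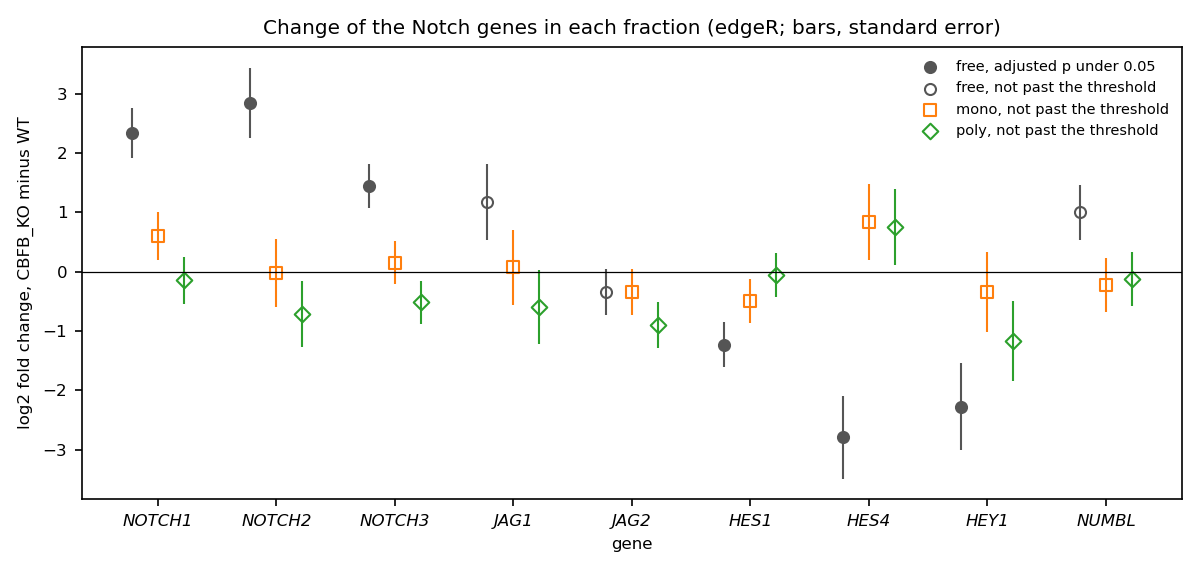
Log2 fold change of CBFB_KO against WT (vertical axis) for 9 Notch genes (horizontal axis) in the free, mono and poly fractions, with bars of 1 standard error from edgeR. Filled symbols passed the adjusted threshold: the 3 receptors lie above 0 and HES1, HES4 and HEY1 below 0 in the free fraction, and the receptors' direction turns with an offset for gene length. DLL1 is left out because both its CBFB_KO poly libraries were at 0.

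Within WT cells, the poly fraction was compared with the free fraction. NOTCH1, NOTCH3, JAG1 and JAG2 were higher in poly than in free RNA of WT cells, 4 of 10 beside 14% of all genes, and 0 of 10 were lower beside 7.99%. The largest of these differences were 2.82 for NOTCH1 (standard error 0.43, adjusted p = 0.00217, edgeR) and 2.22 for JAG2 (standard error 0.40, adjusted p = 0.00404, edgeR) on the log2 scale. JAG1 followed at 2.10 (adjusted p = 0.0388) and NOTCH3 at 1.46 (adjusted p = 0.0168, edgeR). NOTCH2 at 1.67 (adjusted p = 0.0563) and HES1 at -1.09 (adjusted p = 0.0585, edgeR) narrowly missed the threshold. In edgeR the calls of JAG2 and NOTCH3 were lost without WT replicate 1 (adjusted p = 0.0790 and 0.0991), those of JAG1 and NOTCH3 without WT replicate 2 (adjusted p = 0.286 and 0.124), and that of JAG1 also without CBFB_KO replicate 1 or 2 (adjusted p = 0.0837 and 0.0802), while DLL1 was called higher without WT replicate 2 (adjusted p = 0.0327). With the length offset the calls of NOTCH3 and JAG1 were lost as well (adjusted p = 0.735 and 0.420), and HES1 was called lower at -1.07 (adjusted p = 0.0403, edgeR).

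The same comparison within CBFB_KO cells called 2 genes higher and 3 lower. JAG2 at 1.66 (standard error 0.39, adjusted p = 0.00914, edgeR) and HES4 at 2.93 (standard error 0.70, adjusted p = 0.00935, edgeR) were higher in poly RNA, beside 14.6% of all genes. NOTCH2 at -1.87 (adjusted p = 0.0289), NUMBL at -1.59 (adjusted p = 0.0247) and DLL1, with 9 and 2 free counts against 0 poly counts (adjusted p = 0.0472, edgeR), were lower, beside 16.7%. NOTCH1 at 0.35 and NOTCH3 at -0.49 did not pass (adjusted p = 0.523 and 0.314, edgeR). In edgeR none of the 3 lower calls remained without CBFB_KO replicate 1, without CBFB_KO replicate 2, with the CBFB_KO poly libraries as 1 sample or with library size alone, where NOTCH2 turned to 0.42 and NUMBL to 0.56, and NOTCH2 turned to 0.72 with the length offset. The higher calls of JAG2 and HES4 were lost without CBFB_KO replicate 2 (adjusted p = 0.235 and 0.115, edgeR).

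The difference between the genotypes' poly-to-free ratios was tested directly as an interaction. It was negative for NOTCH1, NOTCH2, NOTCH3 and DLL1 and positive for HES4 among those that passed, 4 of 10 lower beside 14.3% of all genes and 1 of 10 higher beside 4.1%. For NOTCH1 the log2 ratio was lower in CBFB_KO than in WT cells by -2.47 (standard error 0.57, adjusted p = 0.0141, edgeR), for NOTCH2 by -3.55 (standard error 0.81, adjusted p = 0.0135, edgeR) and for NOTCH3 by -1.96 (standard error 0.51, adjusted p = 0.0239, edgeR). The ratio of HES4 was higher by 3.54 (standard error 0.94, adjusted p = 0.0253, edgeR). DLL1 had an adjusted p of 0.0444 (edgeR), with counts too low for a fold. HES1 at 1.17 (adjusted p = 0.129), JAG1 at -1.76 (adjusted p = 0.166), HEY1 at 1.10 (adjusted p = 0.429), NUMBL at -1.12 (adjusted p = 0.218) and JAG2 at -0.56 (adjusted p = 0.467, edgeR) did not pass. In edgeR none of the 5 calls remained without CBFB_KO replicate 2 or with the 2 CBFB_KO poly libraries as 1 sample, those of NOTCH2 and HES4 remained without CBFB_KO replicate 1, where the value of HES4 was 5.88, and those of NOTCH1, NOTCH2 and DLL1 remained without either WT replicate. The poly-to-mono ratio, which leaves out the free libraries, differed between genotypes by -0.83 to 0.43 on the log2 scale for the 9 genes other than DLL1. None of the 10 passed (adjusted p = 1 after rounding for all, edgeR). The count was 0 of all 16275 genes, 0%, of which 164 had an unadjusted p under 0.05. DESeq2 also called 0, and edgeR without a filter on low counts called 7 genes higher and 9 lower, none of them a Notch gene described here.

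The study scored translation by the ratio of poly to free FPKM, and took a ratio in the knockout under 0.5 times the WT ratio as decreased. On the FPKM ratio NOTCH2 and DLL1 were under the limit among the 10 Notch genes. Neither reached a mean FPKM of 1 in each of the 4 conditions used. Of the 5 Notch genes that did, 0 were under the limit, beside 8.1% of the 7126 genes that did. The paper reports a larger share of all mRNAs under its rule, over a set of genes that it does not define. The 8.1% is therefore not a repeat of that share. The ratio of NOTCH2 was 4.70 in WT and 1.30 in CBFB_KO cells, 0.278 of the WT value, and that of DLL1 was 7.48 in WT and 0 in CBFB_KO cells. NOTCH1 had ratios of 10.2 and 5.81, above the limit at 0.567 of the WT value, and NOTCH3 had 3.68 and 3.43. HES4 had 0.953 in WT and 29.8 in CBFB_KO cells, HES1 0.686 and 4.51, and HEY1 0.363 and 4.53. The median gene of the 7126 had a log2 relative ratio of 2.14, and the part of the mitochondrial share in it was not tested. On TMM-normalised values 6 of 10 were below 0.5, and with 1 added to each FPKM only NOTCH2 was. These ratios are descriptions and were not tested.

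The members' free-fraction changes ran in nearly the same order as their transcript lengths. The receptors and JAG1 are long mRNAs, with mean effective lengths in RSEM of 10969 bases for NOTCH2, 9077 for NOTCH1, 6766 for NOTCH3 and 5680 for JAG1, and HEY1, HES1 and HES4 are short, at 1639, 1360 and 688. JAG2 (3154), DLL1 (2980) and NUMBL (2179) lay between. Spearman's rho of length and log2 free change was 0.939 over these 10 genes, which share the same 4 libraries. Over all 16273 genes with a length it was 0.442, with median log2 changes of -0.77 for 9708 genes under 2000 bases, 1.18 for 5720 genes of 2000 to 5000 bases and 2.72 for 845 genes over 5000 bases. In poly RNA the medians of the same classes were 0.03, -0.13 and -0.21.

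When each library was given an offset for its trend with length, the receptors' free changes turned, to -1.03 for NOTCH1 (adjusted p = 0.119), -0.75 for NOTCH2 (adjusted p = 0.158) and -1.65 for NOTCH3 (adjusted p = 0.0128, edgeR). JAG1 also turned, to -1.77 (adjusted p = 0.0335, edgeR). The target genes stayed lower, with HES1 at -0.93 (adjusted p = 0.0457), HES4 at -2.25 (adjusted p = 0.00959) and HEY1 at -2.30 (adjusted p = 0.0319, edgeR), in a fit that called 6 of 10 lower beside 24.4% of all genes and 0 of 10 higher beside 16%. The poly-to-free difference became 0.98 for NOTCH1, 0.30 for NOTCH2 and 1.21 for NOTCH3, none of which passed (adjusted p = 0.331, 0.744 and 0.171, edgeR). In that comparison 1 of 10 was called higher beside 8.73% and 0 of 10 lower beside 8.36%, the call being HES4 at 2.89 (adjusted p = 0.0295, edgeR). With library size alone in place of TMM factors, the median of all genes in the free fraction moved to -1.57, where NOTCH1 at 0.62, NOTCH2 at 1.06 and NOTCH3 at -0.31 lay above that median without passing, and HES1 at -2.85, HES4 at -4.17 and HEY1 at -3.96 lay below it and passed.

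**Figure D3:**
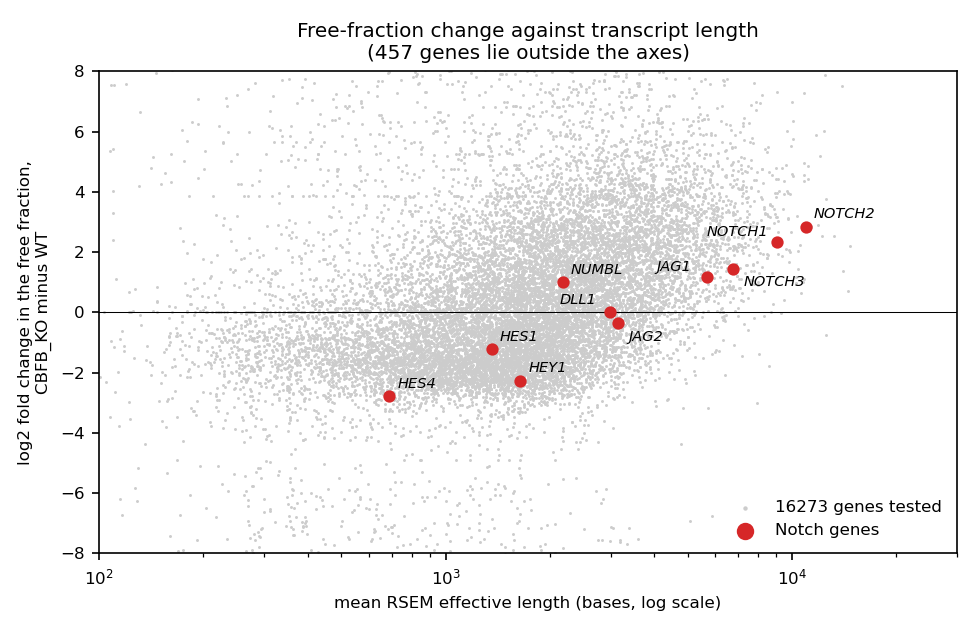
Log2 fold change of CBFB_KO against WT in the free fraction (vertical axis) against mean RSEM effective length in bases (log scale, horizontal axis) for 16273 genes in grey and the 10 Notch genes in red. HES4, HES1 and HEY1 sit at the short end below 0 and the receptors at the long end above 0, along the trend of all genes, and the receptors fall below 0 with an offset for gene length. The plot leaves 457 genes outside its axes.

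The other genes of the pathway were read from 7 lists. Of 59 genes, 55 were tested, 21 were higher and 8 lower in CBFB_KO free RNA, beside 24.2% and 18.1% of all genes (median log2 change 1.03, against 0.04 for all genes), and 0 were called in mono or poly RNA by edgeR. In the poly-to-free interaction 12 were lower and 1 higher, beside 14.3% and 4.1%, with a median of -1.16 against -0.10 for all genes. The sign of these medians turned with the scaling. The free median was -0.61 with the length offset, beside -0.31 for all genes, and -0.91 with library size alone, beside -1.57. The interaction median was 0.78 and 0.45, beside 0.32 and 1.54 for all genes. With the length offset, both medians lay on the other side of the all-gene median than in the fit with TMM. With library size alone they stayed on the same side. Leaving out TMM factors moves all genes of a library together, so that fit could hardly have changed the side. The free counts were 10 higher and 19 lower with the length offset, beside 16% and 24.4% of all genes. They were 7 higher and 23 lower with library size alone, beside 1281 and 6461 of 16275 genes. The interaction counts were 6 higher and 6 lower with the length offset, beside 8.73% and 8.36% of all genes. They were 6 higher and 5 lower with library size alone, beside 3003 and 646 of 16275 genes.

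For the nuclear complex that carries the Notch signal, 6 of 7 genes were higher in CBFB_KO free RNA, beside 24.2% of all genes. Some genes of this list had 0 counts in a WT free library, so their changes rest on values near the floor. The count was 4 of 7 with the length offset and 2 of 7 with library size alone. The median log2 change of 3.78 kept its sign, at 1.61 with the length offset and 1.94 with library size alone. In the interaction EP300, RBPJ and MAML1 were lower, 3 of 7 beside 14.3% of all genes. EP300, an acetyltransferase recruited by the complex, stood at 0.234 and 0.605 RPKM in WT free and 9.20 and 13.8 in CBFB_KO free libraries, with 0.165 and 0.320 in WT poly and 0.12 and 0.124 in CBFB_KO poly libraries. Its interaction was -5.76 (adjusted p = 0.000955, edgeR). RBPJ, the DNA-binding subunit, stood at 0.404 and 0.531 in WT free and 4.67 and 8.20 in CBFB_KO free libraries (interaction -3.33, adjusted p = 0.0297, edgeR). MAML1, the coactivator, stood at 1.45 and 2.05 in WT free and 9.50 and 9.26 in CBFB_KO free libraries (interaction -2.84, adjusted p = 0.00601, edgeR). With the length offset only the call of EP300 remained among these 3, at -2.16 (adjusted p = 0.0348, edgeR). The same held with library size alone, with EP300 at -3.96 (adjusted p = 0.0152), RBPJ at -1.51 (adjusted p = 0.229) and MAML1 at -1.14 (adjusted p = 0.289, edgeR). In edgeR the call of RBPJ was also lost without CBFB_KO replicate 1 or 2, and that of MAML1 without CBFB_KO replicate 2.

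Co-repressors that hold RBPJ targets silent were lower in the interaction for 3 of 12 genes, beside 14.3% of all genes. SPEN was lower by -4.38 (adjusted p = 0.00103) and the histone demethylase gene KDM5A by -2.99 (adjusted p = 0.04, edgeR). The latter turned to 0.15 with the length offset (adjusted p = 0.896, edgeR). In the free fraction 5 genes of this list were higher and 1 lower, beside 24.2% and 18.1% of all genes. The counts became 2 higher and 6 lower with either the length offset or library size alone. The list's median of 0.61 turned to -0.89 with the length offset and -1.13 with library size alone. All-gene medians in those fits were -0.31 and -1.57.

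Receptor cleavage genes went both ways. In the free fraction 5 of 9 were higher and 3 lower, beside 24.2% and 18.1% of all genes. Their median of 1.19 turned to -0.51 with the length offset and -0.48 with library size alone, beside all-gene medians of -0.31 and -1.57. NCSTN, a γ-secretase subunit, had 13.1 and 32.2 RPKM in WT free and 552 and 753 in CBFB_KO free libraries (interaction -5.42, adjusted p = 0.00229, edgeR), while the small subunit PSENEN had 80.8 and 77.9 in WT free and 34.1 and 21.8 in CBFB_KO free libraries (interaction 1.87, adjusted p = 0.0315, edgeR). The protease gene ADAM17 had 0 counts in both WT free libraries and 125 and 100 in CBFB_KO free libraries, at least 52.7-fold higher by library size alone against a floor of 3 counts per library (interaction adjusted p = 0.000468, edgeR). The call of PSENEN was lost with the length offset (1.13, adjusted p = 0.0716), with the CBFB_KO poly libraries as 1 sample (adjusted p = 0.146) and without any single replicate (adjusted p = 0.0516 at the lowest), and that of NCSTN without CBFB_KO replicate 2 (adjusted p = 0.0519, edgeR). NCSTN, PSENEN, ADAM17 and KDM5A each overlap a protein-coding gene on the opposite strand, so their counts are uncertain in the same way as those of DLL1.

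Among genes of receptor trafficking and turnover, 4 of 12 were higher in CBFB_KO free RNA, beside 24.2% of all genes, and 3 were lower in the interaction, beside 14.3%. The free counts became 1 higher and 2 lower with the length offset and 1 higher and 4 lower with library size alone. The free median of 1.08 turned to -1.12 with the length offset and -0.74 with library size alone, beside all-gene medians of -0.31 and -1.57. NUMB, the closest relative of NUMBL, was at 1.49 and 2.83 RPKM in WT free and 29 and 35.0 in CBFB_KO free libraries, against 2.86 and 4.32 in WT poly and 3.44 and 3.59 in CBFB_KO poly libraries (interaction -3.92, adjusted p = 0.00216, edgeR). The ubiquitin ligase genes NEDD4, at -4.20 (adjusted p = 0.0263), and NEURL1B, at -2.13 (adjusted p = 0.0298, edgeR), were the others. With the length offset NUMB remained lower at -2.41 (adjusted p = 0.00815), NEDD4 at -1.49 did not pass (adjusted p = 0.265), and NEURL1B turned to 0.82 (adjusted p = 0.453, edgeR). With library size alone none of the 3 passed (adjusted p = 0.0657, 0.148 and 0.734, edgeR). Of 4 tested genes of receptor glycosylation, 1 was lower in the interaction, beside 14.3% of all genes. It was POGLUT1, a glucosyltransferase of Notch, at -3.27 (adjusted p = 0.0190, edgeR). That call was lost with the length offset (-1.73, adjusted p = 0.179), with library size alone (-1.50, adjusted p = 0.181), and without CBFB_KO replicate 1 or 2 (adjusted p = 0.0680 and 0.259, edgeR).

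Neither the remaining receptors and ligands nor the other target genes had a call in the interaction with TMM scaling. With the length offset 1 and 2 of them were called higher, beside 8.73% of all genes. With library size alone 2 and 2 were called higher, beside 3003 of 16275 genes. Of the former, 5 of 6 were tested and 3 were lower in CBFB_KO free RNA, beside 18.1% of all genes, with a median log2 change of -1.70. Of the latter, 6 of 8 were tested and 1 was lower, beside the same 18.1%. Their median was -0.65, below 0 like the changes of HES1, HES4 and HEY1. The median of all genes under 2000 bases was also below 0, at -0.77. With the length offset the medians were -2.60 for the former and -1.83 for the latter, beside -0.31 for all genes. With library size alone they were -3.32 and -2.19, beside -1.57.

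**Figure D4:**
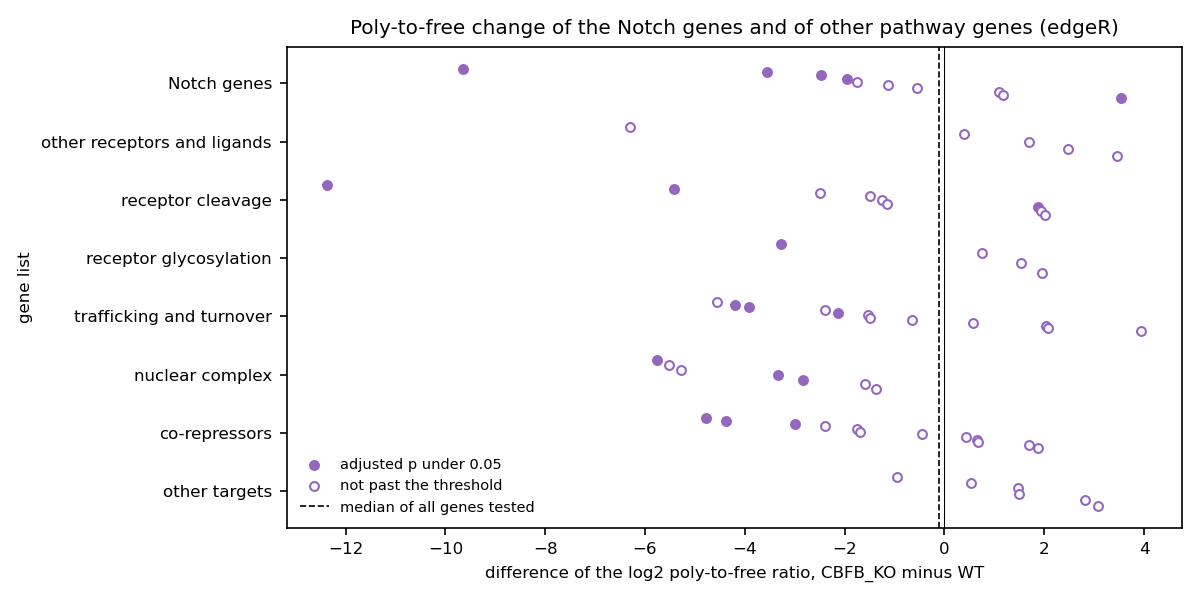
Difference of the log2 poly-to-free ratio, CBFB_KO minus WT (horizontal axis), for the 10 Notch genes and the tested genes of 7 other pathway lists (vertical axis), 1 point per gene, with filled points past the adjusted threshold and a dashed line at the median of all genes, -0.10. Filled points lie mostly left of the line, with HES4 and PSENEN on the right, and the points of the receptors move to the right of 0 with an offset for gene length. The leftmost points, ADAM17 and DLL1, have a condition at 0 counts in both libraries, so their position depends on the prior count.

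In order of level, the poly fraction of WT cells ran HES1 (31.1 ± 1.0 RPKM, SD, n = 2), JAG2 (20.3 ± 0.82), HES4 (16.2 ± 4.21), NOTCH3 (8.98 ± 1.11), NOTCH1 (4.04 ± 0.65), NUMBL (4.01 ± 0.61), JAG1 (2.10 ± 1.34), NOTCH2 (1.79 ± 1.14), DLL1 (0.549 ± 0.069) and HEY1 (0.429 ± 0.012). Libraries of NOTCH1 and NUMBL overlapped, as did those of JAG1 and NOTCH2, and the other neighbours did not. CBFB_KO poly RNA had HES4 above JAG2, at 27.3 ± 1.61 and 10.9 ± 0.016, and DLL1 last at 0. HES1 led the free fraction of both genotypes, at 66.3 ± 10.1 in WT and 28.3 ± 4.44 in CBFB_KO cells, and HES4 led the mono fraction, at 50.4 ± 4.34 and 90.2 ± 15.9.

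Genes most like NOTCH3, HES1 and HES4 were sought among 7802 genes by Pearson's r of log2 normalised counts (CPM) over the 12 libraries, which share fractions, genotype and depth. For NOTCH3 they were TXNRD1 (0.984), GLUD1 (0.976) and DLG3 (0.976). HES1 was closest to PCBP1 (0.923), SULT1E1 (0.911) and PRMT3 (0.876), and HES4 to TMEM11 (0.996), TIMM22 (0.995) and RHOD (0.994). These values describe the 12 libraries and carry no test.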

How the data were processed

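RNA-seq libraries of 12 gradient fractions were analysed, 2 per genotype and fraction, grouped by their titles. The labels name an mRNA kit and the study's methods mention rRNA removal, so how RNA was selected is uncertain. The authors trimmed reads with Trimmomatic, aligned them to hg19 with STAR and quantified genes with RSEM, per the submitters' processing notes and the study's methods. Versions and the strand setting are not given in the sources used here. The deposited tables give, per gene, RSEM expected counts, an effective length, TPM and FPKM computed by the authors. TPM as deposited was not used here. Expected counts were rounded and tested with edgeR 4.0.16 (R 4.3.3; TMM, filterByExpr, quasi-likelihood, all 12 libraries, 1 mean per condition), with Benjamini-Hochberg adjustment over 16275 genes. RPKM used the mean RSEM effective length per gene. DESeq2 1.42.0, other scalings, an unfiltered fit, a replicate block, leaving out each replicate, fewer libraries and a length offset (loess span 0.3) were alternatives. The fit to 8 mono and poly libraries was chosen after seeing the data. The edgeR test was also run on simulated counts in which few genes differed between genotypes and none by a trend with length. In the free fraction of the data many genes differed and changes followed length, so the simulation does not cover that comparison. Fold bounds use a floor of 3 counts per library and cover counting error only. Symbols came from RefSeq and gene name tables. Members and lists were chosen with earlier results of these data known. Named genes were all members, up to 4 per pathway list with the largest called poly-to-free difference, CBFB, and the 3 genes most correlated with NOTCH3, HES1 and HES4 among those of at least 5 CPM on average (prior count 2). NOTCH2NLA was added as a partial copy of NOTCH2. The values of 1 gene that this rule names are not reported here.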

Additional observations from a re-analysis of the deposited data

Results flagged for a closer look

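The difference between genotypes in the poly-to-free ratio was past the threshold of edgeR's interaction test for 5 of the 10 Notch genes, beside 14.3% of all genes lower and 4.1% higher. The log2 difference, CBFB_KO minus WT, was -2.47 for NOTCH1, -3.55 for NOTCH2 and -1.96 for NOTCH3, all of which turned with the length offset. It was 3.54 for HES4, which stayed positive in every alternative run but was past the threshold in only part of them. It was -9.64 for DLL1, a fitted value that depends on the prior count because both CBFB_KO poly libraries were at 0. No explanation was tested for these differences.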

How the results depend on the processing

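Without mitochondrially encoded genes and with the replicate block, every count of Notch genes was within 1.5 times its value in edgeR on all 12 libraries. The labels do not say that a replicate number marks a shared gradient. Correlations of replicate deviations between conditions ran from -0.16 to 0.28 and were over 0.1 in 5 of 15 pairs. Pairs with CBFB_KO poly, whose replicates hardly differed, could show little. These values therefore cannot decide whether libraries of the same number deviated together. With the replicate block the WT poly-to-free call of NOTCH2 was gained (adjusted p = 0.0211) and that of JAG1 lost (adjusted p = 0.0511, edgeR), no other call of a named gene changed, the interaction still called 1 Notch gene higher and 4 lower, and its count of all genes higher went from 668 to 1104.

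Counts of Notch genes changed as follows, and the cause was not tested. With the length offset, the free fraction had 0 higher and 6 lower, beside 2601 and 3975 of 16273 genes. The interaction had 0 lower, beside 1361 genes. WT poly-to-free had 2 higher and 1 lower, beside 1814 and 1866 genes, and CBFB_KO poly-to-free 5 higher and 1 lower, beside 3184 and 2305. With library size alone, counts of Notch genes were 0 higher in the free fraction, beside 1281 of 16275 genes. They were 2 higher and 0 lower in the interaction, beside 3003 and 646 genes. In CBFB_KO poly-to-free they were 7 higher and 0 lower, beside 7669 and 566 genes. With only the libraries compared, counts of Notch genes were 0 lower in the free fraction, beside 97 of all genes, and 2 lower in poly, beside 111. They were 0 higher in the interaction, beside 253 of all genes, and 1 higher in CBFB_KO poly-to-free, beside 2312. With the CBFB_KO poly libraries as 1 sample, they were 0 higher and 0 lower in the interaction, and 1 higher and 0 lower in CBFB_KO poly-to-free. Without a filter, 1 was lower in the free fraction and 1 in poly, beside 3164 and 56 of all genes. DESeq2 had 1 lower in poly and 1 lower in WT poly-to-free, beside 73 and 2325 of all genes. The mono and poly libraries alone had 1 lower in poly, beside 48. Under the ratio limit of 0.5 there were 6 on TMM-normalised values and 1 with a pseudocount of 1.

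Leaving out each replicate gave 2 to 4 higher and 0 to 3 lower in the free fraction, 0 to 1 higher and 0 to 4 lower in the interaction, 2 to 3 higher in WT poly-to-free, and 0 to 2 higher and 0 to 3 lower in CBFB_KO poly-to-free. Calls gained in the free fraction in edgeR were JAG1 without WT replicate 1 (adjusted p = 0.0291) and NUMBL and DLL1 without WT replicate 2 (adjusted p = 0.0311 and 0.0471). The remaining library of a condition is then assumed to vary like the others. Log2 values that crossed 0 in these fits were, for the poly change, NOTCH1 (-0.30 to 0.071), NOTCH2 (-1.25 to 0.20), JAG1 (-1.13 to 0.31), HES1 (-0.10 to 0.013) and NUMBL (-0.23 to 0.035), for WT poly-to-free NUMBL (-1.05 to 0.39), and for CBFB_KO poly-to-free HES1 (-0.081 to 0.30) and HEY1 (-0.61 to 0.11). None of these had passed.

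Direction turned with the length offset for the free changes of NOTCH1 (-1.03), NOTCH2 (-0.75), NOTCH3 (-1.65) and JAG1 (-1.77), for the interactions of NOTCH1 (0.98), NOTCH2 (0.30), NOTCH3 (1.21), JAG1 (1.36), JAG2 (1.13), KDM5A (0.15) and NEURL1B (0.82), and for CBFB_KO poly-to-free of NOTCH2 (0.72), NOTCH3 (1.43) and HES1 (-0.19). With library size alone it turned for the free changes of NOTCH3 (-0.31), JAG1 (-0.61) and NUMBL (-0.63), the interactions of JAG2 (1.03) and NUMBL (0.52), WT poly-to-free of NUMBL (0.041), and CBFB_KO poly-to-free of NOTCH2 (0.42), NOTCH3 (1.81), HEY1 (1.99) and NUMBL (0.56). In DESeq2 it turned for CBFB_KO poly-to-free of HES1 (-0.085).

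Counts over all genes moved by more than 1.5 times too: genes lower in the free fraction were 2939 on all 12 libraries, 97 on the 4 free libraries, 157 without CBFB_KO replicate 2, 1016 without WT replicate 1 and 6461 with library size alone. Genes higher there were 3943, but 1281 with library size alone, 1466 without CBFB_KO replicate 2, 1824 on the 4 free libraries and 2601 with the length offset. In the interaction 2332 were lower, but 646 with library size alone, 360 without CBFB_KO replicate 2, 797 with the CBFB_KO poly libraries as 1 sample and 1361 with the length offset. Its 668 higher genes became 2113 in DESeq2, 1619 without a filter, 3003 with library size alone, 1420 with the length offset, 253 with only the libraries compared and 26 with the CBFB_KO poly libraries as 1 sample, and ranged from 2 to 1783 without single replicates. Depth limits DLL1, HEY1 and HES4 most, with 0 to 5 counts in their lowest library.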
